A study of Drosophila melanogaster with 14 samples.

Results

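The comparison described here sets indirect flight muscle (IFM) of *Drosophila melanogaster* that makes a catalytically dead TET protein (*Tet* CD) against flight muscle of the *Tet-GFP* line, whose TET is active. It uses 4 of the 14 libraries of the series, 2 of *Tet* CD and 2 of *Tet-GFP*, and all 17890 genes of the deposited table. The muscle was dissected from pupae at 96 h after puparium formation (APF), and RNA of the whole dissected muscle was sequenced. Both lines carry GFP at the C terminus of the endogenous TET protein, because the catalytic mutation was put into the *Tet-GFP* knock-in. The tag is thus common to both, and the mutation of the catalytic domain is the intended difference. They are separate fly stocks, so any other difference between the stocks cannot be told apart from the mutation, and its part was not tested. *Tet* CD flies live and breed. The other 4 flight muscle libraries of the series, 2 of a *Tet* null and 2 of wild type (labelled w11118) at the same age, are used below only to see where the 2 tagged lines lie, and the 6 wing disc libraries are not used. One of the *Tet* null libraries has a flight muscle title but a wing disc tissue label, and it is taken by its title. The libraries of a line are numbered 1 and 3 in the table, and nothing in the labels says that they came from separate animals or dissections, so each test below measures only the spread between these samples.

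TET proteins are dioxygenases. In mammals they oxidise 5-methylcytosine in DNA to 5-hydroxymethylcytosine. The fly genome has a single *Tet* gene and carries very little DNA methylation, and its TET is known to hydroxymethylate cytosine in RNA and to act at chromatin. A catalytically dead protein can still be made and can still bind its partners, so a comparison of *Tet* CD with *Tet-GFP* asks which transcripts depend on the catalytic activity, while a null removes the whole protein. Flight muscle is a fibrillar muscle that fills most of the thorax, and close to adult emergence it is building its myofibrils and mitochondria.

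The 4 libraries were alike in depth, with 41.2 and 43.2 M reads on genes in *Tet* CD and 41.3 and 41.4 M reads in *Tet-GFP*. At this depth 1 read on a transcript of 1 kb was worth between 0.0209 and 0.0259 RPKM, the unit of the table (reads scaled to transcript length and to sequencing depth). The mitochondrial large ribosomal RNA took 16.1% and 18.3% of the reads on genes in *Tet* CD and 17.6% in each *Tet-GFP* library. The tissue label was borne out by the defining genes of flight muscle. *Act88F*, the actin of flight muscle, stood at 13600.0 and 14383 RPKM in *Tet* CD, against 17287 and 14614 RPKM in *Tet-GFP*. *Mhc*, the muscle myosin heavy chain, stood at 5878 and 6549.6 RPKM in *Tet* CD, against 7841 and 5727 RPKM in *Tet-GFP*. Across genes, each library was closest to the library of the same number in the other line, with a Pearson r of log2 values of 0.957 between *Tet* CD 1 and *Tet-GFP* 1 and of 0.959 between *Tet* CD 3 and *Tet-GFP* 3. Within a line r was 0.948 in *Tet* CD and 0.934 in *Tet-GFP*.

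The number of a library also went with a gene of developmental timing. *Blimp-1*, an ecdysone-responsive transcription factor that times pupal development, had 6.65 and 0.0809 RPKM in *Tet* CD 1 and 3, against 17.7 and 0.159 RPKM in *Tet-GFP* 1 and 3. It was high in library 1 and close to 0 in library 3 of either line. The roX RNAs, which belong to the male dosage compensation complex, were lowest in *Tet* CD 1. *lncRNA:roX1* had 6.58 and 15.0 RPKM in *Tet* CD, against 16.8 and 22.6 RPKM in *Tet-GFP*, and *lncRNA:roX2* had 4.81 and 15.6 RPKM in *Tet* CD, against 13 and 17.9 RPKM in *Tet-GFP*. The part of stage and of sex ratio in the differences below was not tested.

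*Tet* itself (FBgn0263392, 3L:2786207-2879158, BDGP6 coordinates as all below) was transcribed at similar levels in both lines. It had 4.19 and 3.77 RPKM in *Tet* CD, against 3.96 and 3.66 RPKM in *Tet-GFP*, a log2 difference of 0.05 (SE 0.15). The groups overlapped. In the *Tet* null libraries it had 0.405 and 0.219 RPKM, and in wild type 2.04 and 3.01 RPKM. A catalytic mutation cannot be seen in a transcript level, so these values show that the transcript was present in *Tet* CD but do not check the allele.

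No gene passed the limma test on log2 RPKM between *Tet* CD and *Tet-GFP*. With so few libraries, a lack of calls does not mean a lack of differences. The paper tested read counts of this pair with DESeq2 at the same limits and reports a limited set of deregulated genes. Counts are not in the table used here, so that test was not repeated. Of 8141 genes with a mean of at least 0.5 RPKM over the 4 libraries, 0 were called higher (0%) and 0 lower (0%) in *Tet* CD by limma at a Benjamini-Hochberg adjusted p under 0.05 and a fold above 1.5, and the smallest adjusted p was 0.240. At an unadjusted p under 0.05 there were 494 genes, which is 6.07% of those tested, 274 of them higher (3.37%) and 220 lower (2.7%) in *Tet* CD. When limma tested each gene against a fold of 1.5, 149 genes had an unadjusted p under 0.05 and none an adjusted one. The transcriptomes were close. Of the genes tested, 7101 (87.2%) differed by less than 1.5-fold, and the median log2 difference was -0.01, with a median standard error of 0.22. Fold changes are on the scale of log2(RPKM + 0.5), which understates those of low genes.

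Values rather than calls therefore describe this comparison. Both *Tet* CD libraries lay above both *Tet-GFP* libraries, with a fold between the group means above 1.5, in 390 genes (4.79%), and below both with such a fold in 276 genes (3.39%), or 666 genes in all (8.18%). Groups that meet these 2 conditions are said to stand apart. These shares are the background for every count of a gene group below. With a fold between means above 2 the counts were 163 above and 116 below, and with one above 4 they were 45 above and 20 below. When the libraries were scaled by their reads on genes instead of by the deposited scaling, the median log2 difference of all genes was 0.12 and the split became 608 above and 176 below, so the balance of the 2 directions rests on the scaling.

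**Figure D1:**
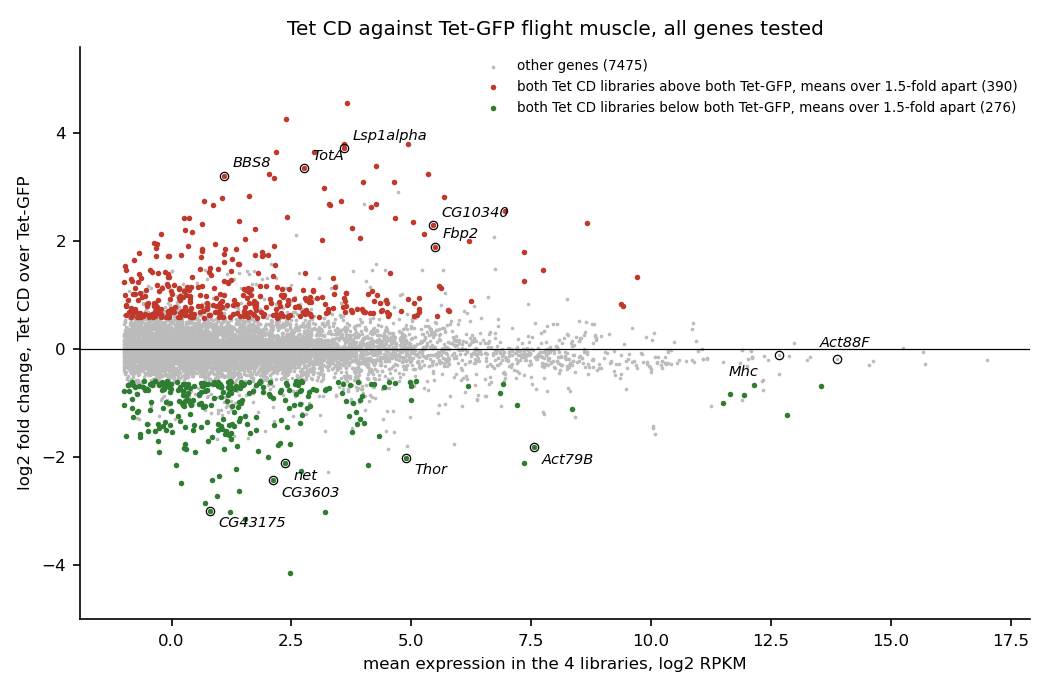
Log2 difference of each of the 8141 genes tested, *Tet* CD minus *Tet-GFP*, against its mean level over the 4 libraries (log2 RPKM), with the genes whose groups do not overlap and whose means differ by more than 1.5-fold coloured by direction. The cloud is centred near 0 (median -0.01), and 390 genes lie above and 276 below.

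When the spread of each gene was taken over the 8 flight muscle libraries of all 4 lines, 22 genes (0.27%) passed between *Tet* CD and *Tet-GFP*, 9 of them higher (0.111%) and 13 lower (0.16%) in *Tet* CD, with limma adjusted p-values between 0.0132 and 0.0455. With the spread taken from the 4 libraries compared, the smallest adjusted p under the other settings tried lay between 0.109 and 0.925, so these calls belong to that one setting. Under it the genes higher in *Tet* CD were *BBS8*, *CG13690*, *CG13692*, *CG10340*, *TORIP*, *lncRNA:CR45400*, *lncRNA:CR45279*, *hpRNA:CR33940* and *mir-9378*. The genes lower were *CG43175*, *net*, *alpha-Est2*, *asRNA:CR44030*, *MsrA*, *EndoU*, *CG1998*, *fal*, *v*, *CG14715*, *tRNA:Ile-AAT-1-6*, *CG7966* and *fuss*.

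The genes with the smallest p-values among those whose groups did not overlap were taken for description, 12 in each direction. By limma their unadjusted p-values lay between 8.35e-05 and 0.000849 for those standing higher and between 0.000135 and 0.000773 for those standing lower in *Tet* CD, and their adjusted p-values between 0.240 and 0.253. Of these 24 genes, 12 were among the 22 called with the spread over 4 lines. Their values by library follow.

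Several genes stood high in *Tet* CD and near 0 in every other flight muscle library. *BBS8* (FBgn0031255, 2L:422873-425321), which encodes a subunit of the BBSome, a coat complex that carries cargo in cilia, had 3.79 and 4.75 RPKM in *Tet* CD, against 0.0229 and 0 RPKM in *Tet-GFP*, a log2 difference of 3.21 (SE 0.18). The *Tet* null libraries had 0.0190 and 0.162 RPKM and the wild type libraries 0.0350 and 0.0372 RPKM. No library of the other lines came within 10-fold of *Tet* CD.

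*BBS8* had company at its place on 2L. *CG13692* (2L:421771-422489), which ends just ahead of it on the same strand, had 3.06 and 3.94 RPKM in *Tet* CD, against 0.0390 and 0.225 RPKM in *Tet-GFP* (log2 difference 2.67). *CG13690* (2L:418434-419652) had 2.11 and 2.61 RPKM in *Tet* CD, against 0.0425 and 0.0204 RPKM in *Tet-GFP* (2.42), and no more than 0.123 RPKM in *Tet* null and wild type. All 3 genes were barely read in flight muscle of the other lines. *CG11885*, which lies between these genes, had 2.64 and 4.71 RPKM in *Tet* CD, against 0.559 and 1.57 RPKM in *Tet-GFP* (1.45). *ebi*, a corepressor subunit whose end overlaps *CG13690* on the opposite strand, had 2.41 and 2.57 RPKM in *Tet* CD, against 1.46 and 1.25 RPKM in *Tet-GFP* (0.69). The abundant genes there did not share the difference. *RpLP1*, a ribosomal protein gene that also lies between them, had 233 and 267 RPKM in *Tet* CD, against 294 and 317 RPKM in *Tet-GFP*, and *AP-2alpha*, an adaptor subunit of clathrin coats, had 11.5 and 13 RPKM in *Tet* CD, against 11.9 and 12.3 RPKM in *Tet-GFP*.

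Some noncoding RNAs and the protein-coding gene *CG3339* showed the same layout. *lncRNA:CR45279* (2R:12593195-12593827) had 4.83 and 3.17 RPKM in *Tet* CD, against 0.246 and 0.0393 RPKM in *Tet-GFP*, a log2 difference of 2.80, and at most 0.354 RPKM in the other 4 libraries. *lncRNA:CR45400* (3L:127321-127666) had 1.94 and 1.5 RPKM in *Tet* CD and was listed at 0 in the other 6 libraries. Its neighbour *lncRNA:CR45401* had 2.49 and 0.744 RPKM in *Tet* CD and was also listed at 0 in the other 6. *lncRNA:CR45400* and *lncRNA:CR45401* were thus read only in *Tet* CD among the flight muscle libraries. *CG3339* had 1.55 and 0.763 RPKM in *Tet* CD, against 0.00876 and 0.00842 RPKM in *Tet-GFP*, and at most 0.0606 RPKM elsewhere. In the protein-coding gene *CG42586* (2L:14741161-14741840) the other lines were lower than *Tet* CD but not near 0 throughout. It had 4.27 and 4.23 RPKM in *Tet* CD, against 0.846 and 0.772 RPKM in *Tet-GFP*. It had 0.769 and 0.166 RPKM in *Tet* null, against 0.688 and 2.05 RPKM in wild type.

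In other genes that stood far higher in *Tet* CD, it was *Tet-GFP* that lay apart from the other 3 lines. *CG10340* (3R:16613398-16614391) had 66.8 and 78.8 RPKM in *Tet* CD, against 14.3 and 14.5 RPKM in *Tet-GFP*, a log2 difference of 2.29 (SE 0.19). The *Tet* null libraries had 72.8 and 55.2 RPKM and the wild type libraries 76.0 and 79.8 RPKM, so *Tet* CD was close to wild type. *phr*, the photolyase that repairs ultraviolet damage in DNA, had 2.54 and 3.76 RPKM in *Tet* CD, against 0.0263 and 0.0506 RPKM in *Tet-GFP* (2.74, SE 0.24), with 4.04 and 4.12 RPKM in *Tet* null and 3.49 and 1.12 RPKM in wild type. *CG1208* had 15.5 and 5.38 RPKM in *Tet* CD, against 0.0104 and 0 RPKM in *Tet-GFP*, with 37.5 and 31.0 RPKM in *Tet* null and 18.3 and 7.58 RPKM in wild type. Each of these genes was well transcribed in every line but *Tet-GFP*.

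*CG7860* had 2.83 and 3.03 RPKM in *Tet* CD, against 0.226 and 0.145 RPKM in *Tet-GFP*, and between 0.991 and 2.69 RPKM in *Tet* null and wild type. *MtnF*, of the metallothionein family of metal-binding proteins, had 4.01 and 7.55 RPKM in *Tet* CD, against 0.108 and 0.673 RPKM in *Tet-GFP*, and between 4.23 and 6.52 RPKM in the other lines. *hpRNA:CR33940*, a hairpin RNA gene, had 1.45 and 1.54 RPKM in *Tet* CD, against 0.102 and 0.0983 RPKM in *Tet-GFP*, and between 1.24 and 1.67 RPKM in the other lines. In all 3 genes both *Tet-GFP* libraries lay below the other 6.

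In further genes of the higher set, the null and wild type libraries took other places. *lncRNA:CR43264* had 4.94 and 4.97 RPKM in *Tet* CD, against 0.652 and 1.02 RPKM in *Tet-GFP*, and 6.27 and 1.60 RPKM in *Tet* null, against 0.414 and 0.0880 RPKM in wild type. *Lsp1alpha*, a hexamerin storage protein made by the fat body, had 17.3 and 28.5 RPKM in *Tet* CD, against 1.47 and 1.01 RPKM in *Tet-GFP* (3.72, SE 0.33), with 7.13 and 1.24 RPKM in *Tet* null and 3.43 and 13.7 RPKM in wild type. *Acp65Aa*, a protein of the adult cuticle, had 26.2 and 23.2 RPKM in *Tet* CD, against 6.19 and 4.94 RPKM in *Tet-GFP*, and 1.15 and 0.596 RPKM in *Tet* null, against 9.34 and 54.3 RPKM in wild type. Both *Lsp1alpha* and *Acp65Aa* differed several-fold between the wild type libraries, and lists of fat body and cuticle genes are taken up below.

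**Figure D2:**
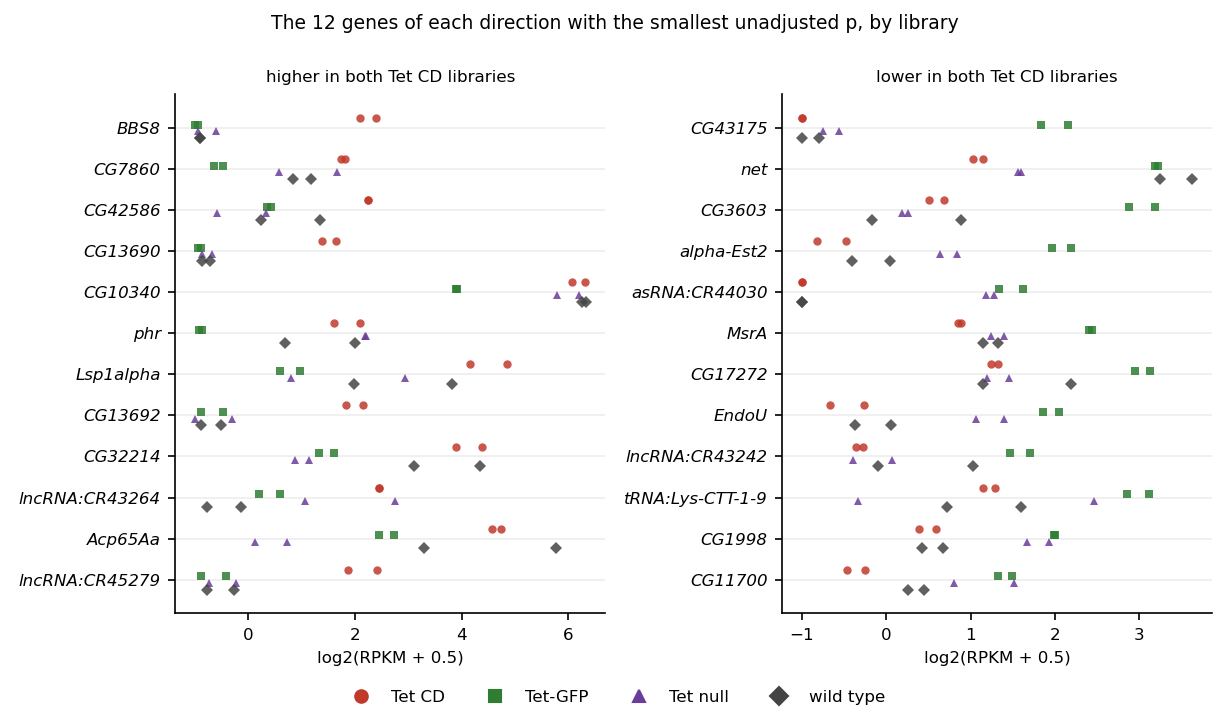
Level, as log2(RPKM + 0.5), of the 12 genes of each direction in each of the 8 flight muscle libraries, 1 point per library, with the line given by colour and marker. *BBS8*, *CG13690* and *CG13692* are high in *Tet* CD alone, *CG10340* is low in *Tet-GFP* alone, and *net* is low in both *Tet* CD and *Tet* null.

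Among the genes standing lower in *Tet* CD, *net* was also low in the null. *net* (FBgn0002931, 2L:82421-87387) encodes a basic helix-loop-helix transcription factor that limits vein formation in the wing. It had 1.54 and 1.72 RPKM in *Tet* CD, against 8.58 and 8.84 RPKM in *Tet-GFP*, a log2 difference of -2.11 (SE 0.14). It had 2.46 and 2.53 RPKM in *Tet* null, against 8.97 and 11.9 RPKM in wild type, a log2 difference of -1.86. All 4 mutant libraries lay below all 4 libraries with active TET, and the effects of the 2 alleles differed by -0.26 on the log2 scale, which limma did not call (adjusted p = 0.611, between all 8 libraries). *CG3603* had 1.11 and 0.927 RPKM in *Tet* CD, against 6.85 and 8.56 RPKM in *Tet-GFP* (-2.43), and at most 1.35 RPKM in the other 4 libraries, so here *Tet* CD lay with them and *Tet-GFP* lay apart.

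Further genes of this set were high in *Tet-GFP* alone, so that *Tet* CD again lay with the other lines. *CG43175* (3R:17630717-17645262) had 0 RPKM in both *Tet* CD libraries, against 3.94 and 3.06 RPKM in *Tet-GFP*, and at most 0.179 RPKM elsewhere. *MsrA*, which repairs oxidised methionine in proteins, had 1.35 and 1.31 RPKM in *Tet* CD, against 4.92 and 4.78 RPKM in *Tet-GFP* (-1.55, SE 0.13), and between 1.71 and 2.14 RPKM in the other 4 libraries. *v*, the tryptophan 2,3-dioxygenase of the eye pigment pathway, had 0.161 and 0.145 RPKM in *Tet* CD, against 3.59 and 7.63 RPKM in *Tet-GFP*, and at most 0.407 RPKM elsewhere. *Cyp6a2*, a cytochrome P450 of insecticide metabolism, had 0.551 and 0.113 RPKM in *Tet* CD, against 7.28 and 2.69 RPKM in *Tet-GFP*, and at most 0.559 RPKM elsewhere. The high values were those of the *Tet-GFP* line in each of these genes.

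A further set was low in *Tet* CD and wild type and higher in *Tet-GFP* and *Tet* null. *alpha-Est2*, a carboxylesterase gene, had 0.0685 and 0.220 RPKM in *Tet* CD, against 3.39 and 4.06 RPKM in *Tet-GFP*, and 1.29 and 1.06 RPKM in *Tet* null, against 0.258 and 0.536 RPKM in wild type. *EndoU*, an endoribonuclease gene, had 0.331 and 0.129 RPKM in *Tet* CD, against 3.64 and 3.12 RPKM in *Tet-GFP*, and 2.12 and 1.60 RPKM in *Tet* null, against 0.545 and 0.272 RPKM in wild type. *CG1998* had 0.813 and 1.0 RPKM in *Tet* CD, against 3.51 and 3.47 RPKM in *Tet-GFP*, and 3.30 and 2.68 RPKM in *Tet* null, against 1.09 and 0.839 RPKM in wild type. In all 3 genes the *Tet* CD and wild type libraries lay below every *Tet-GFP* and *Tet* null library, and in *alpha-Est2* and *EndoU* both *Tet-GFP* libraries were also above both *Tet* null libraries.

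On the fourth chromosome, *asRNA:CR44030* (4:959675-962692) had the same layout. It was listed at 0 in both *Tet* CD libraries, against 2.03 and 2.58 RPKM in *Tet-GFP*, and had 1.76 and 1.92 RPKM in *Tet* null, against 0 in both wild type libraries. *fuss*, a Ski-family transcriptional corepressor gene that lies next to it on the opposite strand and overlaps it, had 0.0788 and 0.0634 RPKM in *Tet* CD, against 1.37 and 1.04 RPKM in *Tet-GFP*, with 0.565 and 0.629 RPKM in *Tet* null and 0.744 and 0.835 RPKM in wild type, so its wild type libraries did not lie with *Tet* CD. Whether reads were counted by strand is not given in the sources used here, so reads of this pair may not be told apart.

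The remaining lower genes had both *Tet* CD libraries below both *Tet-GFP* libraries, with *Tet* null and wild type spread between or around them. *CG17272* had 1.88 and 2.01 RPKM in *Tet* CD, against 7.19 and 8.21 RPKM in *Tet-GFP*, with 1.79 and 2.25 RPKM in *Tet* null and 4.05 and 1.71 RPKM in wild type. *CG11700* had 0.338 and 0.225 RPKM in *Tet* CD, against 2.0 and 2.30 RPKM in *Tet-GFP*, with 1.24 and 2.36 RPKM in *Tet* null and 0.697 and 0.863 RPKM in wild type. *lncRNA:CR43242* had 0.327 and 0.281 RPKM in *Tet* CD, against 2.26 and 2.76 RPKM in *Tet-GFP*, with 0.551 and 0.262 RPKM in *Tet* null and 0.435 and 1.54 RPKM in wild type. In *CG11700* the *Tet* CD libraries were the lowest of the 8. *tRNA:Lys-CTT-1-9*, one of several near-identical tRNA genes, had 1.72 and 1.94 RPKM in *Tet* CD, against 6.75 and 8.19 RPKM in *Tet-GFP*, with 0.294 and 5.02 RPKM in *Tet* null and 2.53 and 1.15 RPKM in wild type.

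Counts over all genes showed where the 2 tagged lines lay among the 4. Both *Tet* CD libraries were above all 6 others by more than 1.5-fold in 21 genes and below all 6 in 5 genes. For *Tet-GFP* the counts were 33 above and 26 below, for *Tet* null 466 above and 175 below, and for wild type 34 above and 55 below. By more than 2-fold, *Tet* CD stood alone in 11 genes above and 1 below, and *Tet-GFP* in 12 above and 11 below. By more than 4-fold, *Tet* CD stood alone in 4 genes above and 0 below, *Tet-GFP* in 2 and 1, *Tet* null in 22 and 4, and wild type in 1 and 2. At 1.5-fold and at 2-fold, *Tet* CD was the line with the fewest genes of its own, but not at 4-fold. The RPKM were scaled separately in the libraries of the tagged lines and in those of *Tet* null and wild type, so levels set across these pairs carry that difference in scaling.

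Genes read in one tagged line and close to 0 in the other were few. With at least 1 RPKM in both libraries of one line and under 0.1 RPKM in both of the other, 6 genes were on in *Tet* CD alone of the pair (*BBS8*, *CG1208*, *CG13690*, *lncRNA:CR45400*, *mir-4975* and *phr*), and 5 were on in *Tet-GFP* alone of the pair (*CG43175*, *asRNA:CR44030*, *fuss*, *snoRNA:Psi18S-640a* and *tRNA:Ile-AAT-1-6*).

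The contractile apparatus of the muscle differed little between the lines. None of the 10 thick filament genes and none of the 11 Z-disc and titin-like genes tested stood apart by more than 1.5-fold, against 8.18% of all genes in either direction, and their median log2 differences were -0.12 and 0.00. *Mlc2*, a myosin light chain, had 9631 and 9815 RPKM in *Tet* CD, against 11354 and 10222 RPKM in *Tet-GFP*. *sls*, which encodes the titin-like sallimus, had 142 and 169.8 RPKM in *Tet* CD, against 207 and 144 RPKM in *Tet-GFP*. *Actn*, the alpha-actinin of the Z-disc, had 329 and 353 RPKM in *Tet* CD, against 329.65 and 286 RPKM in *Tet-GFP*. The groups of *Mlc2* stood apart by less than 1.5-fold and those of *sls* and *Actn* overlapped.

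Of the 14 thin filament genes tested, 2 stood higher and 2 lower in *Tet* CD, with a median of -0.04. All 4 were far less abundant than *Act88F*. In wild type *Act57B* had 83.4 and 108 RPKM, close to its *Tet* CD level. *Act57B*, an actin of larval and other muscles, had 89.6 and 109 RPKM in *Tet* CD, against 50.9 and 55.2 RPKM in *Tet-GFP* (0.89), and *TpnC73F*, a troponin C, had 18.0 and 22.9 RPKM in *Tet* CD, against 10.9 and 14.1 RPKM in *Tet-GFP* (0.69). *Act79B*, the actin of tubular muscles such as those of the leg and the jump muscle, had 43.4 and 134 RPKM in *Tet* CD, against 387 and 189 RPKM in *Tet-GFP* (-1.82). *TpnC41C*, a troponin C of adult muscles, had 3.64 and 11.1 RPKM in *Tet* CD, against 22.4 and 17.3 RPKM in *Tet-GFP* (-1.54). The low *Act79B* and *TpnC41C* values were lowest in *Tet* CD 1. Both genes also differed widely between the wild type libraries. *Act79B* had 119 and 424 RPKM there, and *TpnC41C* had 8.69 and 24.6 RPKM. In libraries of dissected tissue, fewer cells of a kind and less RNA per cell cannot be told apart.

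None of the 14 flight muscle regulators stood apart, and their median was 0.03. *salm*, the selector gene of fibrillar flight muscle, had 41.6 and 40.0 RPKM in *Tet* CD, against 36.1 and 31.0 RPKM in *Tet-GFP*. *bru1*, the splicing regulator of flight muscle, had 58.4 and 78.7 RPKM in *Tet* CD, against 81.4 and 77.8 RPKM in *Tet-GFP*. None of the 8 calcium handling genes tested stood apart (median -0.09). Of 14 genes of attachment and the dystrophin complex, 2 stood higher in *Tet* CD and 0 lower. In wild type these 2 were close to their *Tet* CD levels. *Tsp* had 7.31 and 3.62 RPKM there, and *Dg* had 6.89 and 5.88 RPKM. *Tsp*, the thrombospondin of muscle attachment sites, had 8.50 and 3.62 RPKM in *Tet* CD, against 1.12 and 1.58 RPKM in *Tet-GFP* (1.73), and *Dg*, the dystroglycan, had 6.25 and 6.90 RPKM in *Tet* CD, against 4.27 and 4.13 RPKM in *Tet-GFP* (0.59).

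Nuclear genes of oxidative phosphorylation stood slightly lower in *Tet* CD as a group. Of 91 listed, 71 were tested, 0 stood apart by more than 1.5-fold, and 70 of the 71 had a negative log2 difference, with a median of -0.26 against -0.01 for all genes. In 52 of the 71, both *Tet* CD libraries were below both *Tet-GFP* libraries by some margin, which was so for 18.8% of all genes. *ATPsynO*, a subunit of the ATP synthase, had 804 and 944 RPKM in *Tet* CD, against 1240.0 and 1107 RPKM in *Tet-GFP*. *Cyt-c-p*, cytochrome c, had 3825 and 4039 RPKM in *Tet* CD, against 4396 and 4484 RPKM in *Tet-GFP*. With the libraries scaled by reads on genes the median was -0.10, against 0.12 for all genes. These genes share the libraries and their scaling, so their agreement is not that of independent measurements, and no member passed the test. A lean to negative values was not limited to this list. Of 83 cytosolic ribosomal protein genes tested, 68 were negative and 15 positive, with a median of -0.08. The 72 mitochondrial ribosomal protein genes tested were split, with 37 negative and 35 positive.

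The 9 protein-coding genes of the mitochondrial genome analysed here, a part of those it holds, had a median of -0.04, and *mt:CoI*, cytochrome oxidase subunit I, had 43388 and 60031 RPKM in *Tet* CD, against 59675 and 46434 RPKM in *Tet-GFP*. Of 72 mitochondrial ribosomal protein genes, 2 stood higher and 2 lower in *Tet* CD, with a median of 0.00. *mRpL37* had 12.7 and 21.3 RPKM in *Tet* CD, against 6.44 and 9.29 RPKM in *Tet-GFP*, and *mRpL24* had 16.3 and 23.8 RPKM in *Tet* CD, against 27.4 and 34.3 RPKM in *Tet-GFP*. The members thus stood apart in both directions. In wild type *mRpL37* had 14.4 and 16.9 RPKM, between its 2 *Tet* CD libraries. Of the 14 genes of glycolysis and the glycerol phosphate shuttle, 0 stood apart (median -0.08). Of the 83 cytosolic ribosomal protein genes 1 stood higher, *RpS15Ab*, with 24.1 and 31.1 RPKM in *Tet* CD, against 16.3 and 19.3 RPKM in *Tet-GFP*.

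**Figure D3:**
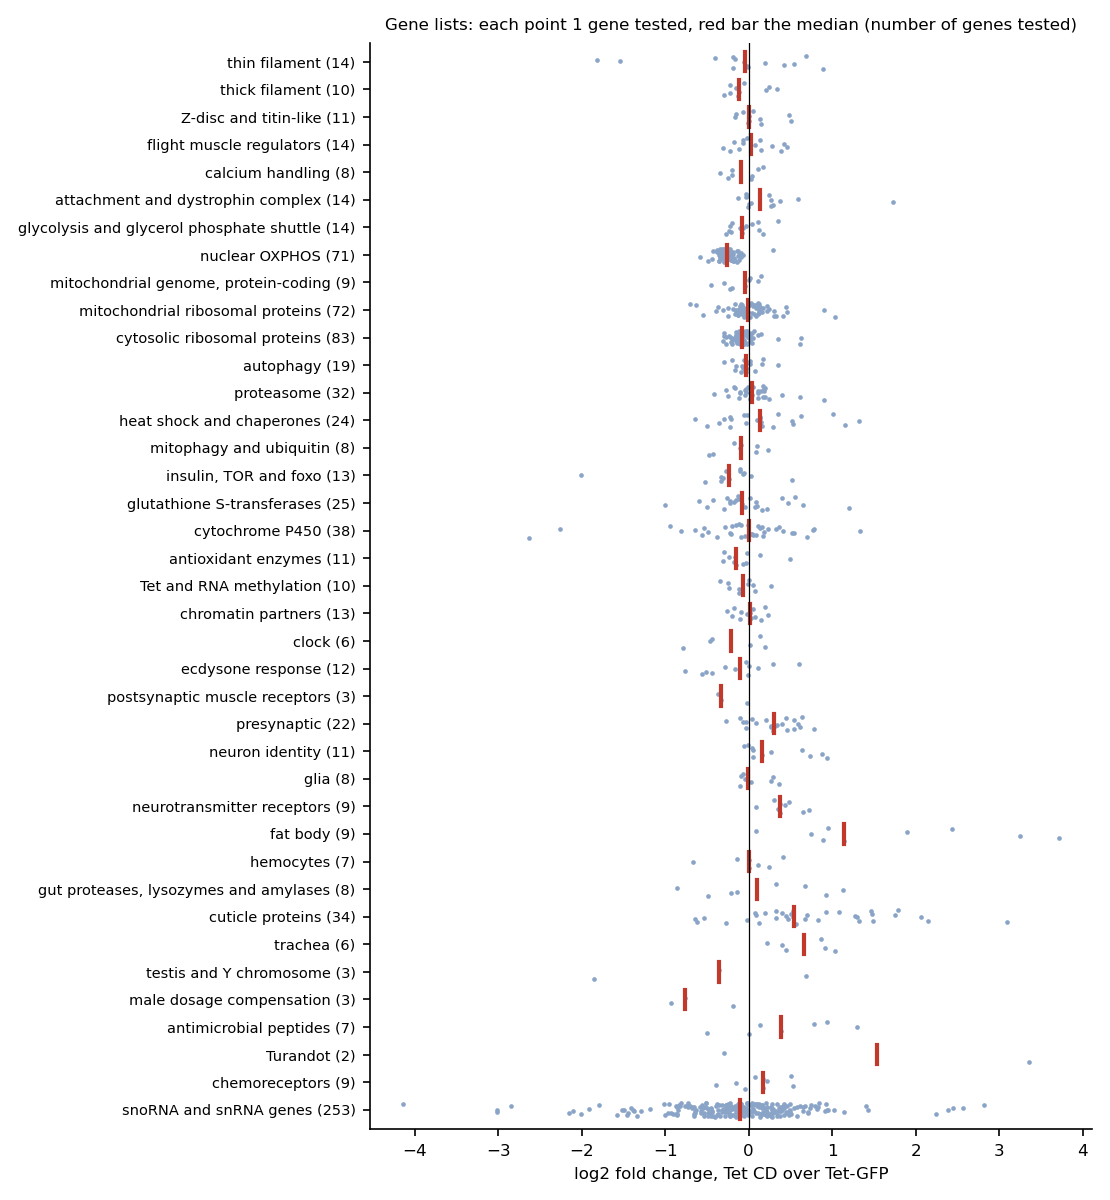
Log2 difference, *Tet* CD minus *Tet-GFP*, of the members of each gene list that were tested, 1 point per gene with the median of the list as a red bar. Most medians lie near 0, the oxidative phosphorylation genes lie just below it (-0.26), and the fat body list (1.14) and the cuticle list (0.55) lie above.

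Genes of protein turnover and ageing were mostly level. None of 19 autophagy genes stood apart, and *ref(2)P*, the p62 receptor that gathers with ubiquitinated protein in ageing muscle, had 8.97 and 8.24 RPKM in *Tet* CD, against 8.00 and 9.62 RPKM in *Tet-GFP* (-0.03). Of 32 proteasome genes 2 stood higher in *Tet* CD. *Prosbeta6*, a subunit of the core particle, had 22.8 and 26.0 RPKM in *Tet* CD, against 12.2 and 13.5 RPKM in *Tet-GFP* (0.90). Its wild type libraries had 18.0 and 22.7 RPKM. The median of the list was 0.03. Of 24 heat shock and chaperone genes, 4 stood higher (*Hsp23*, *Hsp68*, *l(2)efl* and *Hsp70Aa*) and 1 lower (*Hsp83*). *Hsp23*, a small heat shock protein, had 11.8 and 18.4 RPKM in *Tet* CD, against 5.66 and 5.58 RPKM in *Tet-GFP* (1.32), and *Hsp83*, the fly Hsp90, had 81.0 and 107 RPKM in *Tet* CD, against 131 and 163 RPKM in *Tet-GFP* (-0.64).

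Of 13 genes of insulin, TOR and foxo signalling, 1 stood apart. *Thor*, the 4E-BP that restrains translation and is a target of the foxo transcription factor, had 12.6 and 9.97 RPKM in *Tet* CD, against 37.9 and 57.4 RPKM in *Tet-GFP*, a log2 difference of -2.01 (SE 0.29). It had 42.9 and 95.1 RPKM in *Tet* null, against 12.3 and 10.6 RPKM in wild type, a log2 difference of 2.43. *Tet* CD was at the wild type level and *Tet-GFP* near the *Tet* null level. *ImpL2*, a secreted binder of insulin-like peptides, had 1.90 and 2.18 RPKM in *Tet* CD, against 2.79 and 3.56 RPKM in *Tet-GFP*, and the median of the list was -0.24.

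Genes of RNA methylation and of chromatin complexes did not stand apart. None of 10 genes of *Tet* and RNA methylation and none of 13 chromatin partners differed by more than 1.5-fold without overlap, with medians of -0.06 and 0.01. *fl(2)d*, a subunit of the m6A writer complex, had 4.68 and 5.54 RPKM in *Tet* CD, against 5.33 and 5.79 RPKM in *Tet-GFP*. *osa*, a subunit of the Brahma remodelling complex, had 6.42 and 6.33 RPKM in *Tet* CD, against 5.76 and 4.99 RPKM in *Tet-GFP*. Of 6 clock genes 1 stood lower, *tim*, the partner of period, with 1.05 and 0.935 RPKM in *Tet* CD, against 1.99 and 2.18 RPKM in *Tet-GFP*. Of 12 ecdysone response genes 1 stood higher, *ftz-f1*, a nuclear receptor. It had 50.7 and 30.3 RPKM in *Tet* CD, against 26.0 and 25.2 RPKM in *Tet-GFP*. Its wild type libraries had 59.7 and 21.1 RPKM and so spanned all of these values.

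Of the genes of nerve terminals, none of the 22 presynaptic genes stood apart. Their summed level was 98.7 and 67.4 RPKM in *Tet* CD, against 50.5 and 100.4 RPKM in *Tet-GFP*, so the groups overlapped. *nSyb*, the neuronal synaptobrevin, had 5.41 and 3.52 RPKM in *Tet* CD, against 1.30 and 6.64 RPKM in *Tet-GFP*. Of 11 neuron identity genes 3 stood higher in *Tet* CD, where 4.79% of all genes did. *Appl*, the amyloid precursor-like protein, had 4.82 and 3.14 RPKM in *Tet* CD, against 0.987 and 3.04 RPKM in *Tet-GFP*, and *futsch*, a microtubule-associated protein of axons, had 2.42 and 1.28 RPKM in *Tet* CD, against 0.483 and 1.06 RPKM in *Tet-GFP*. Of 9 neurotransmitter receptor genes 0 stood apart, with a median of 0.38 and summed levels of 18.8 and 13.7 RPKM in *Tet* CD, against 5.45 and 19.1 RPKM in *Tet-GFP*. *Tet-GFP* 1 was the low library in *nSyb*, *Appl*, *futsch* and the summed receptor genes, as it was in the summed presynaptic genes. It was not the low library in the summed neuron identity genes. Of 9 postsynaptic receptor genes of muscle 3 were tested and 0 stood apart, and *GluRIIA* was below 0.25 RPKM in all 4 libraries.

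The fat body genes had the largest share of members apart among the lists. Of 12 genes listed, 9 were tested, and 8 stood higher in *Tet* CD and 0 lower, with a median log2 difference of 1.14. Their summed level was 220.0 and 412 RPKM in *Tet* CD, against 91.0 and 73.8 RPKM in *Tet-GFP*, and 152 and 30.0 RPKM in *Tet* null, against 93.7 and 204 RPKM in wild type. The 2 libraries of *Tet* null and the 2 of wild type also lay well apart from each other. *Lsp1beta*, a hexamerin, had 35.2 and 51.4 RPKM in *Tet* CD, against 7.86 and 7.07 RPKM in *Tet-GFP* (2.44). *Fbp2* had 54.7 and 87.7 RPKM in *Tet* CD, against 20.6 and 16.1 RPKM in *Tet-GFP* (1.90). *Obp99b*, an odorant-binding protein gene expressed in the fat body, had 41.7 and 107 RPKM in *Tet* CD, against 7.94 and 5.49 RPKM in *Tet-GFP* (3.25). The exception was *Apoltp*, a lipid transfer particle gene, with 1.14 and 1.29 RPKM in *Tet* CD, against 1.40 and 0.865 RPKM in *Tet-GFP*. The yolk protein genes *Yp1*, *Yp2* and *Yp3*, also on the list, were below the level tested. The fat body lies around the flight muscle, and the part of fat body cells in these libraries was not tested.

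Cuticle and tracheal genes leaned the same way. Of 124 cuticle protein genes 34 were tested, of which 10 stood higher and 1 lower in *Tet* CD, with a median of 0.55. Their summed level was 1871 and 3255 RPKM in *Tet* CD, against 1333 and 1619 RPKM in *Tet-GFP*. In *Tet* null it was 802 and 669 RPKM, against 3355 and 3209 RPKM in wild type. *Tet-GFP* lay between *Tet* null and *Tet* CD in this sum, and wild type was close to the higher *Tet* CD library. *Ccp84Ae* had 747 and 942 RPKM in *Tet* CD, against 402 and 552 RPKM in *Tet-GFP*. *Cpr49Ae* had 81.3 and 45.8 RPKM in *Tet* CD, against 10.8 and 16.8 RPKM in *Tet-GFP* (2.14), and *Cpr64Ab* had 2.58 and 58.9 RPKM in *Tet* CD, against 0.751 and 1.49 RPKM in *Tet-GFP*. In 29 of the 34 genes *Tet* CD 3 exceeded *Tet* CD 1, so the group also varied between the libraries of that line. Of 6 tracheal genes 2 stood higher, among them *serp*, a chitin deacetylase, with 4.05 and 10.7 RPKM in *Tet* CD, against 3.10 and 3.51 RPKM in *Tet-GFP*.

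Stress and immune genes were few in this muscle. Of 7 antimicrobial peptide genes tested 2 stood higher in *Tet* CD, among them *Drs*, drosomycin, with 8.77 and 7.13 RPKM in *Tet* CD, against 6.63 and 2.83 RPKM in *Tet-GFP*. *TotA*, a humoral stress factor made by the fat body, had 7.24 and 18.3 RPKM in *Tet* CD, against 0.403 and 1.03 RPKM in *Tet-GFP*, a log2 difference of 3.36. Its wild type libraries had 3.5 and 11.9 RPKM. Of 7 blood cell genes tested 1 stood lower, *Hml*, hemolectin, with 6.09 and 3.47 RPKM in *Tet* CD, against 8.93 and 6.52 RPKM in *Tet-GFP*. None of the 8 glial genes and none of the 8 gut genes tested stood apart, no ovary gene reached the level tested, and of 34 testis and Y chromosome genes 3 did.

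Along the chromosomes, the genes that stood apart made up 10.6% of the genes tested on 2L, 8.10% on 2R, 6.97% on 3L, 9.29% on 3R, 11.1% on the fourth chromosome and 5.27% on the X, against 8.18% in all. The classes of gene differed more. The share was 7.23% of 7245 protein-coding genes, 21.6% of 306 genes of the ncRNA class, 20.3% of 148 tRNA genes and 11.5% of 227 snoRNA genes. Of the tRNA genes 4 stood higher and 26 lower in *Tet* CD. On a short gene, a few reads make a large RPKM.

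Runs of at least 3 neighbouring tested genes, all standing apart by more than 2-fold and to one side, were found at 4 places. The longest, of 6 genes, lay at 3L:19466567-19488439. In it *CG14096* had 18.9 and 52.5 RPKM in *Tet* CD, against 1.81 and 3.48 RPKM in *Tet-GFP*, FBgn0052208 had 28.5 and 62.4 RPKM in *Tet* CD, against 4.29 and 4.65 RPKM in *Tet-GFP*, and *CG12519* had 21.7 and 46.3 RPKM in *Tet* CD, against 3.67 and 5.44 RPKM in *Tet-GFP*. *CG32214* had 14.4 and 20.4 RPKM in *Tet* CD, against 2.54 and 2.01 RPKM in *Tet-GFP*, and *CG32213* had 4.46 and 10.1 RPKM in *Tet* CD, against 2.07 and 0.947 RPKM in *Tet-GFP*. All 5 stood higher in both *Tet* CD libraries, and *Tet* CD 3 was above *Tet* CD 1 in each. The sixth was *hpRNA:CR33940*. Whether near-identical copies share reads here was not tested.

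In 5 of the 6 genes of this stretch, all but *hpRNA:CR33940*, both *Tet* null libraries lay below both of wild type. FBgn0052208 had 4.17 and 2.69 RPKM in *Tet* null, against 32.9 and 32.7 RPKM in wild type, and *CG14096* had 0.281 and 1.20 RPKM in *Tet* null, against 6.04 and 6.47 RPKM in wild type. For FBgn0052208 the *Tet-GFP* libraries were therefore at the *Tet* null level and the *Tet* CD libraries near or above that of wild type. The other stretches were 3 genes at 2L:14741161-14745210 (*CG42586*, *CG34166* and *CG42587*, higher in *Tet* CD), 3 genes at 3R:9685760-9705417 (*CG18542*, *CG32939* and *Unc-115a*, higher) and 3 snoRNA genes at 2L:20418523-20418967 (lower). *Unc-115a*, which encodes an actin-binding protein, had 11.5 and 9.77 RPKM in *Tet* CD, against 4.8 and 4.67 RPKM in *Tet-GFP*.

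The *Tet* CD difference was then set beside that of the *Tet* null against wild type, to see whether the same transcripts differed in both. The 2 comparisons share no library. By the same limma test the *Tet* null had 466 genes called higher (5.5%) and 236 called lower (2.79%) of 8466, where *Tet* CD had 0. Over the 7784 genes tested in both comparisons, the log2 differences had a Pearson r of -0.19 and a Spearman rho of -0.06 across genes, which are not independent replicates. Of 379 genes called higher in the *Tet* null and tested in both, 14 (3.69%) stood higher and 12 (3.17%) lower in *Tet* CD, and 310 differed by less than 1.5-fold. Of 227 genes called lower in the *Tet* null, 43 (18.9%) stood higher in *Tet* CD, against 4.79% of all genes tested, 9 (3.96%) stood lower, and 137 differed by less than 1.5-fold. Few genes called in the null thus stood apart to the same side in *Tet* CD. By their medians both sets leaned higher in *Tet* CD, with 0.32 for genes lower in the null and 0.17 for genes higher. The median of all genes tested was -0.01.

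Read the other way, of 360 genes that stood higher in *Tet* CD and were tested in both, 123 stood lower in the *Tet* null (34.2% of them, and 11.0% of the genes lower in the null), and 53 stood higher (14.7% and 4.22%). Among all genes tested in both, 14.3% stood lower and 16.1% higher in the *Tet* null. Of 247 genes lower in *Tet* CD, 55 stood higher in the *Tet* null (22.3% and 4.38%) and 51 lower (20.6% and 4.57%).

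The difference between the 2 effects was tested with all 8 libraries in a single limma model. Of 8344 genes, 57 differed (0.683%) at an adjusted p under 0.05, with the *Tet* CD effect the higher in 38 (0.455%) and the lower in 19 (0.228%). In 52 of them the 2 effects had opposite signs, and in 36 both were above 1.5-fold and opposite. In 25 of these 36 *Tet* CD stood higher and the *Tet* null lower, and in 11 *Tet* CD stood lower and the *Tet* null higher. None of the 57 had both effects above 1.5-fold with the same sign. A test of the difference favours genes whose effects have opposite signs. The split by sign among the 57 is therefore no separate result. Of the 57, 47 were tested in both comparisons, and the others fell short of the tested level in one of them. The count depended on single libraries, since 128 genes differed without *Tet* CD 1, 4 without *Tet* CD 3, and 0 without either of the *Tet-GFP* libraries.

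**Figure D4:**
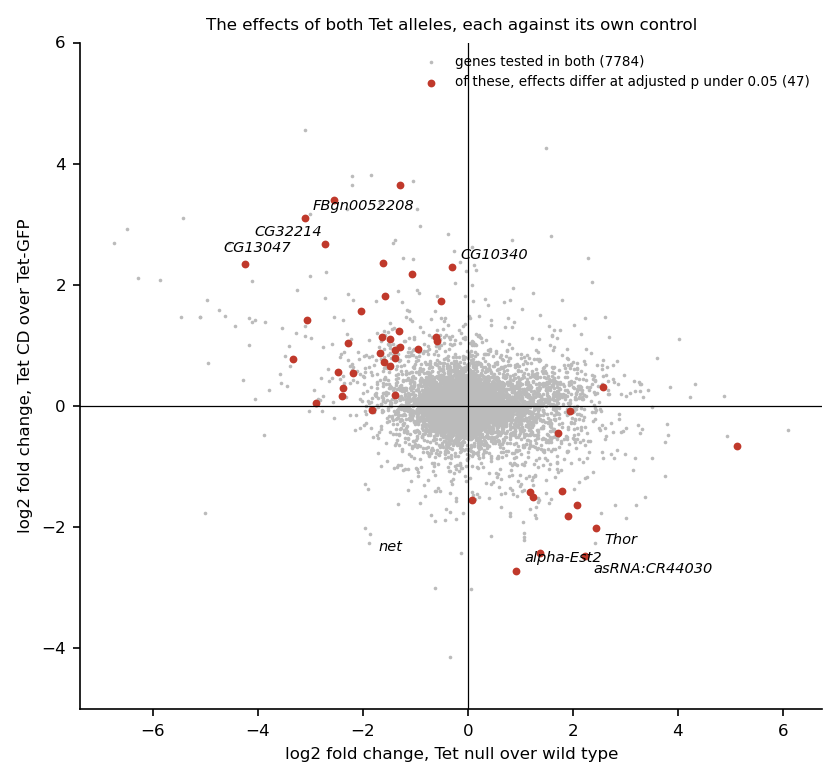
Log2 difference of *Tet* CD against *Tet-GFP* (vertical axis) plotted over that of *Tet* null against wild type (horizontal axis) for the 7784 genes tested in both, with the 47 of them whose effects differ marked. Most of the marked genes lie in the quadrants of opposite sign, which the test of a difference favours.

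The genes of opposite sign included *CG13047* and *Aldh*. *CG13047* had 504 and 839.6 RPKM in *Tet* CD, against 86.7 and 188 RPKM in *Tet-GFP*, and 80.7 and 31.0 RPKM in *Tet* null, against 1357 and 681 RPKM in wild type. *Aldh*, the mitochondrial aldehyde dehydrogenase, had 43.7 and 50.5 RPKM in *Tet* CD, against 25.2 and 23.3 RPKM in *Tet-GFP*, and 15.7 and 18.8 RPKM in *Tet* null, against 32.2 and 34.6 RPKM in wild type. In both genes *Tet* CD stood higher than *Tet-GFP*, and *Tet* null stood lower than wild type.

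**Figure D5:**
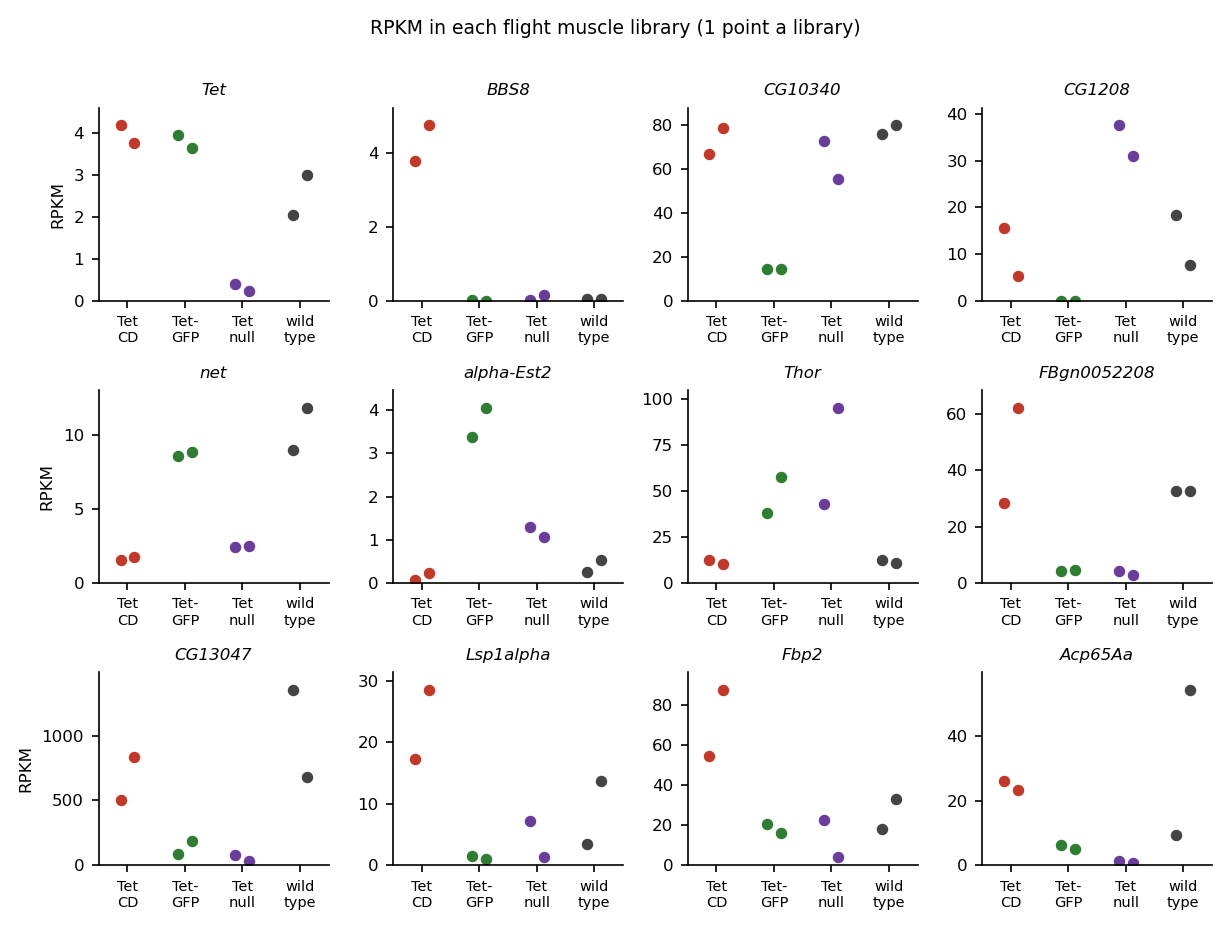
RPKM (linear axis) of 12 genes, a panel each, with 1 point per library and the lines *Tet* CD, *Tet-GFP*, *Tet* null and wild type left to right. *BBS8* is high in *Tet* CD alone, *CG10340* is low in *Tet-GFP* alone, *net* is low in both mutants, and *Thor* and FBgn0052208 have *Tet* CD beside wild type and *Tet-GFP* beside *Tet* null.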

How the data were processed

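The *Tet* CD, *Tet-GFP*, *Tet* null and wild type libraries of flight muscle were RNA-seq of dissected tissue. The table deposited by the authors holds RPKM per gene (recorded here as an unlisted kind of value because its decimals are commas, read as points). Per the labels and methods, reads were trimmed, aligned to dm6 with HISAT2 2.1.0 and counted with HTSeq 0.11.2, and other tools named are Cufflinks 2.2.1 and DESeq2 1.22.2. Between 98.1% and 98.7% of low values lay within 0.1 of a whole number of reads, which gave the reads on genes. The values had been median-ratio scaled within the 4 tagged libraries and within the 4 others separately. Table columns were numbered 1 and 3 where sample titles use 1 and 2, so columns were assigned to lines only. No column of values was left out.

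Genes were tested on log2(RPKM + 0.5) by limma 3.58.1 (trend, R 4.3.3), for those with a mean of at least 0.5 RPKM, with Benjamini-Hochberg adjustment over all genes tested. Calls needed an adjusted p under 0.05 and a fold above 1.5. Groups were said to stand apart when both libraries of one lay beyond both of the other and the fold between their mean log2 values was above 1.5. The 12 genes per direction with the smallest p among those standing apart were named, with genes called with the spread over 4 lines, genes read in one line, neighbours in runs, members of gene lists, and genes whose effects differed. Further genes were picked after their values were seen, among them *lncRNA:CR45401*, *CG3339*, *MtnF*, *MtnC*, *Cyp6a2* and *CG1208*. So were many of the genes whose effects differed, such as *Skel*, *Ipp*, *CG14715*, *CG13047*, *Aldh* and *vri*. Members and lists were chosen with earlier results of these data known. Scripts were tested on simulated data. Positions are from the BDGP6 annotation, and 17850 genes had one. Alternatives are in the closing section.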

Additional observations from a re-analysis of the deposited data

Results flagged for a closer look

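The difference between the 2 effects, *Tet* CD minus *Tet-GFP* against *Tet* null minus wild type, was tested by limma on the log2 scale of RPKM + 0.5. At an adjusted p under 0.05 it marked 24 of the genes described or listed here, and *mir-9378* besides. Many of these genes were picked for description after their values were seen, so the count of 24 is not a result. The values below are the difference between the effects, and a positive one means that the *Tet* CD effect was the higher. Where a group was listed at 0, as in *CG43175* and *asRNA:CR44030*, the value depends on the 0.5 RPKM added. Without either of the *Tet-GFP* libraries, 0 genes differed.

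Among genes with a positive difference, *CG13047* had 6.59, FBgn0052208 6.21, *CG14096* 5.95, *CG32214* 5.39 and *mir-9378* 4.94. *Skel* had 3.61, *Ipp*, an inositol polyphosphate 1-phosphatase gene, 3.38 and *mRpL37* 3.33. *BBS8* had 3.09, *CG10340* 2.59, *CG13690* 2.40, *TORIP* 2.23 and *GstE1*, a glutathione transferase gene, 2.13. *Aldh* had 1.88, *Sf3b3*, a subunit of a splicing factor, 1.73 and *Unc-115a* 1.66. In *Skel* the levels were 3.67 and 4.72 RPKM in *Tet* CD, against 0.951 and 1.19 RPKM in *Tet-GFP*, and 1.30 and 1.13 RPKM in *Tet* null, against 5.14 and 8.21 RPKM in wild type. In *Ipp* they were 5.81 and 6.26 RPKM in *Tet* CD, against 1.07 and 1.71 RPKM in *Tet-GFP*, and 2.12 and 1.39 RPKM in *Tet* null, against 5.68 and 6.57 RPKM in wild type. Both genes were high in *Tet* CD and wild type and low in the other lines.

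Among genes with a negative difference, *asRNA:CR44030* had -4.71 (adjusted p = 0.00906, the smallest), *Thor* -4.44, *EndoU* -3.81, *CG14715* -3.74, *alpha-Est2* -3.63 and *CG43175* -3.23. *CG1998* had -2.76, *vri*, a transcription factor of the clock, -2.15 and *MsrA* -1.64. *CG14715* had 0.196 and 0.295 RPKM in *Tet* CD, against 1.78 and 2.53 RPKM in *Tet-GFP*, and 2.41 and 2.13 RPKM in *Tet* null, against 0.247 and 0.219 RPKM in wild type. In *vri* the levels were 0.955 and 0.647 RPKM in *Tet* CD, against 1.36 and 1.16 RPKM in *Tet-GFP*, and 2.73 and 3.64 RPKM in *Tet* null, against 0.662 and 0.573 RPKM in wild type. The part of stage and of other cell types in these differences was not tested.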

How the results depend on the processing

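The count of 0 calls between *Tet* CD and *Tet-GFP* held under each setting with the spread of the 4 libraries compared, and became 9 higher and 13 lower with the spread over 4 lines. The 57 genes whose effects differed became 30 with 0.1 RPKM added (29 shared), 87 with a correction for exon length (52 shared), and between 0 and 128 when 1 library was left out. Scaling by reads on genes, chosen after seeing the data, gave 608 genes standing higher and 176 lower in place of 390 and 276. Leaving out 1 library, also chosen later, gave 651 to 897 higher and 555 to 735 lower, since fewer libraries then had to lie apart.

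The numbers of the libraries did not pair them by the labels. The difference between library 1 and library 3 in *Tet* CD and in *Tet-GFP* correlated across 8141 genes (r = 0.47), from 2 pairs. With the replicate number as a block, 0 genes were called, 753 had an unadjusted p under 0.05 and the smallest limma adjusted p was 0.109, and 102 genes had effects that differed (38 of the 57 among them). With the block and the length correction, 0 were called and 80 differed. Of single-gene differences between effects under the alternatives, 131 lost the call and 199 did not, and none reversed. The median standard error of a log2 difference, from 2 libraries per line, was 0.22.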

Other observations

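Detoxification and small RNA genes that the report does not describe stood apart in both directions. Of 38 cytochrome P450 genes tested, 3 stood higher and 3 lower in *Tet* CD, and of 25 glutathione S-transferase genes 2 stood higher and 2 lower. *Cyp6a20* had 2.72 and 1.44 RPKM in *Tet* CD, against 1.08 and 0.124 RPKM in *Tet-GFP*. *GstE8* had 2.17 and 0.883 RPKM in *Tet* CD, against 0.439 and 0.244 RPKM in *Tet-GFP*, and its neighbour in the cluster *GstE6* had 2.40 and 1.04 RPKM in *Tet* CD, against 4.07 and 3.38 RPKM in *Tet-GFP*. Members of one family thus lay on opposite sides. None of 11 antioxidant enzyme genes stood apart.

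Of 253 tested genes whose symbols begin with snoRNA or snRNA, a set that leaves out the scaRNA genes, 11 stood higher and 15 lower in *Tet* CD. *snoRNA:Psi18S-525c*, a guide of pseudouridylation of ribosomal RNA, had 0 and 0.176 RPKM in *Tet* CD, against 5.80 and 16.2 RPKM in *Tet-GFP*. *snoRNA:Psi18S-1389b* had 63.1 and 116 RPKM in *Tet* CD, against 7.36 and 18.6 RPKM in *Tet-GFP*. *MtnC*, a metallothionein gene, had 29.3 and 1.58 RPKM in *Tet* CD, against 0.290 and 0 RPKM in *Tet-GFP*, and *Tet* CD 1 accounts for most of that level. *Cyp4g1*, a cytochrome P450 of the oenocytes that makes cuticular hydrocarbons, had 0.919 and 2.1 RPKM in *Tet* CD, against 33.6 and 2.0 RPKM in *Tet-GFP*, and *Tet-GFP* 1 alone was high.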
